A study of Rattus norvegicus with 2 samples.

Results

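The miR-132 and miR-212 cluster was examined in the hippocampus of rats after status epilepticus (SE). Its members were chosen by name, as every row of the deposited table that is called miR-132 or miR-212 with any arm suffix. This gave 4 mature miRNAs, rno-miR-132-3p, rno-miR-132-5p, rno-miR-212-3p and rno-miR-212-5p, from 2 precursors, out of 390 miRNAs in the table. Small RNA was sequenced from 2 pooled libraries, 1 per group, both from the hippocampus of Wistar rats aged 5 months. In the Experimental group SE had been evoked by electrical stimulation in the right amygdala (lateral nucleus), first for 20 minutes and then again in rats that did not yet meet the criteria of SE, and the tissue was taken 24 hours later. The Control group underwent the same implantation of electrodes and a sham stimulation without current. According to the methods of the study the rats were male and perfused with saline, the left hippocampus was used for RNA, and groups held 6 rats, while the number in each pool is not given. The left hippocampus lies opposite to the stimulated amygdala.

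MiR-132 and miR-212 are cut from hairpins of a common primary transcript. In neurons this transcript is induced by synaptic activity and by BDNF through the transcription factor CREB, and miR-132 is known for its effects on dendrites and spines. Dicer cuts each hairpin into a duplex, of which the strand from the 5′ side is called the 5p arm and that from the 3′ side the 3p arm. The strand that is kept in Argonaute guides silencing, and it finds its targets mainly through the seed, bases 2 to 8 from its 5′ end.

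The mature sequences show which members share a seed, while targets were neither predicted nor measured here. All 4 were found by name in the RefSeq annotation of the GRCr8 rat genome, on the plus strand of chromosome 10, and are written 5′ to 3′ with the seed in capitals.
rno-miR-212-5p, chr10:60521771-60521794: aCCUUGGCucuagacugcuuacug
rno-miR-212-3p, chr10:60521811-60521832: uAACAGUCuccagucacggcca
rno-miR-132-5p, chr10:60522055-60522076: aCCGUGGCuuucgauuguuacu
rno-miR-132-3p, chr10:60522091-60522112: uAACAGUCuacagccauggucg

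The 3p arms had the same seed, AACAGUC, and no other mature miRNA of the RefSeq table had it. Counted from the 5′ end, the 3p arms were identical over their first 9 bases and at 17 of 22 positions in all, with the changes A10C, C14U, U17C, U20C and G22A from miR-132-3p to miR-212-3p. The 5p arms, unlike the 3p arms, differed in the seed, by the change G4U from miR-132-5p to miR-212-5p. Compared position by position without gaps, they were identical at 14 of the first 22 positions. MiR-212-5p is the longer, with 24 bases against 22. Both hold the run uuacu near their 3′ end, shifted between them, so the count without gaps understates their likeness. Neither of the 5p seeds was found in another mature miRNA of the RefSeq table. The mismatches that were allowed when reads were assigned to these miRNAs are not given in the sources used here. Between the end of miR-212-3p and the start of miR-132-5p lie 222 bases, and in the same annotation the nearest protein-coding genes on either side of the cluster are Hic1 and Ovca2. The hairpin of miR-132 is given with its 5p arm and then its 3p arm in capitals, because the reads of these arms shifted against each other after SE.
Mir132 hairpin, chr10:60522033-60522133: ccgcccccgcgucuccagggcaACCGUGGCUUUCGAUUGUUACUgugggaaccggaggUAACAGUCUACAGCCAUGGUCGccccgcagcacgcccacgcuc

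The table held 5678090 counts for the Experimental group and 6703056 for the Control group. The level of a miRNA is its count per 1000000 clean reads of the library (CPM), and a single count was worth 0.138 CPM in the Experimental group and 0.114 CPM in the Control group. With 1 library per group there is no replicate check. The intervals are 95% exact intervals that cover counting error only, and Fisher's exact test compares the reads of these libraries, not the conditions. Over the 285 miRNAs with at least 30 counts in either library the median log2 ratio of the Experimental over the Control group was 0.10. With the scaling by TMM this median moved by -0.18 and with unscaled copies by -0.27, so the log2 ratios of the arms and of their sums are also given relative to the median, which does not depend on the scaling.

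In the pool after SE both arms of miR-212 and the 3p arm of miR-132 were higher than in the control pool, while the 5p arm of miR-132 was not distinguishable between the pools. MiR-212-3p was 2.37-fold higher (interval 1.96 to 2.87) and miR-212-5p 2.32-fold (interval 2.02 to 2.68). The 3p arm of miR-132 was 1.64-fold higher (interval 1.40 to 1.92). By Fisher's exact test with adjustment over all 390 miRNAs, 3 of the 4 members passed an adjusted p of 0.01 as higher and 0 as lower. Among all miRNAs with at least 30 counts, 35.1% passed as higher and 19.3% as lower. A log2 ratio of at least 1 was reached by 2 of the 4 members, against 10.2% of all miRNAs with at least 30 counts, and by 0 with a lower value, against 2.11%.

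MiR-212-5p was the most abundant of the 4 after SE. Its 578 counts after SE and 300 counts in the control library correspond to 79.8 CPM (interval 73.4 to 86.6) and 34.3 CPM (interval 30.6 to 38.5). The intervals of these levels did not overlap. The log2 ratio was 1.22 (interval 1.01 to 1.42), or 1.12 above the median, with an adjusted p of 2.88e-33 by Fisher's exact test. Ordered by counts, it stood at place 129 of the 390 miRNAs in the control library and at place 108 after SE.

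MiR-212-3p, the arm that carries the seed shared with miR-132-3p, was counted 330 times after SE and 168 times in the control library. Its level was 45.6 CPM after SE (interval 40.8 to 50.8) and 19.2 CPM in the control library (interval 16.4 to 22.4), again without overlap. The log2 ratio was 1.24 (interval 0.97 to 1.52), or 1.14 above the median, with an adjusted p of 5.32e-20 by Fisher's exact test. Ordered by log2 ratio among the 285 miRNAs with at least 30 counts, miR-212-3p took place 18 and miR-212-5p place 20. With unscaled copies the log2 ratios of both arms fell just under 1, to 0.97 for miR-212-3p and 0.95 for miR-212-5p.

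MiR-132-3p, the arm to which the known neuronal functions of miR-132 are attributed, was counted 384 times after SE and 283 times in the control library. Its level was 53.0 CPM after SE (interval 47.9 to 58.6) and 32.4 CPM in the control library (interval 28.7 to 36.4), so that it was higher after SE beyond counting error. The log2 ratio was 0.71 (interval 0.49 to 0.94), or 0.61 above the median, with an adjusted p of 1.25e-09 by Fisher's exact test. In the same order it took place 52.

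MiR-132-5p, the other strand of the same hairpin, was counted 281 times after SE and 325 times in the control library. This corresponds to 38.8 CPM (interval 34.4 to 43.6) and 37.2 CPM (interval 33.3 to 41.5), and these intervals overlapped widely. The log2 ratio was 0.06 (interval -0.17 to 0.30), with an adjusted p of 0.712 by Fisher's exact test, and lay 0.04 below the median of all miRNAs (-0.04). Its sign was not settled, since it was negative with TMM (-0.12), with unscaled copies (-0.21) and with the size factors of DESeq2 (-0.029). The interval leaves room for a log2 ratio of up to 0.30, and therefore does not show that this arm stayed the same.

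**Figure D1:**
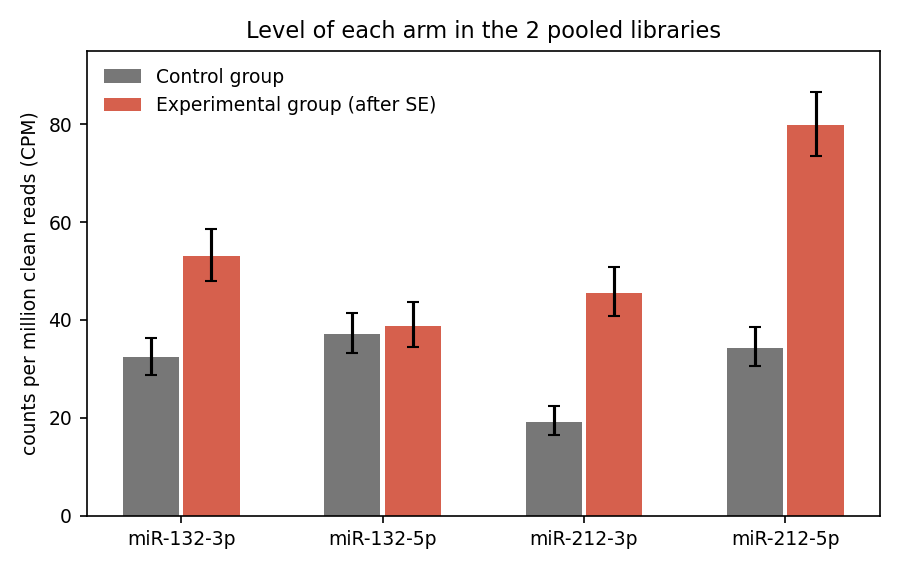
Level of each arm in counts per 1000000 clean reads (vertical axis) in the Control group (grey) and the Experimental group after SE (red), 1 pooled library each. Bars are levels and error bars are 95% exact Poisson intervals, which overlap between the libraries for miR-132-5p (37.2 and 38.8 CPM) and not for the other 3 arms.

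The order of the arms differed between the libraries. In the control library miR-132-5p (37.2 CPM), miR-212-5p (34.3 CPM) and miR-132-3p (32.4 CPM) followed each other with overlapping intervals, and miR-212-3p (19.2 CPM) lay below all of them. After SE miR-212-5p (79.8 CPM) lay above the others. MiR-132-3p (53.0 CPM) and miR-212-3p (45.6 CPM) came next with overlapping intervals. MiR-132-5p (38.8 CPM) came last, below miR-132-3p but overlapping miR-212-3p. These are levels of reads, and differences in how well each small RNA is captured into a library were not measured, so that the order need not be that of the molecules.

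Summed over both arms, the reads of the miR-212 precursor numbered 908 after SE and 468 in the control library, 125 and 53.6 CPM. Its log2 ratio was 1.23 (interval 1.06 to 1.39), or 1.13 above the median, with an adjusted p of 1.91e-52 by Fisher's exact test over the 88 precursors that had both arms in the table. The reads of the miR-132 precursor numbered 665 and 608, 91.8 and 69.6 CPM. Its log2 ratio was 0.40 (interval 0.24 to 0.56), or 0.30 above the median, with an adjusted p of 2.22e-06 by Fisher's exact test. Both precursors were thus higher after SE with the clean reads as depth, as were 40.7% of the 86 precursors with at least 30 counts, while a log2 ratio of at least 1 was reached by miR-212 and by 6.98% of these precursors. The call for miR-132 was lost with TMM (log2 ratio 0.22, adjusted p = 0.0127 by Fisher's exact test) and with unscaled copies (0.13, adjusted p = 0.165).

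The log2 ratio was larger for miR-212 than for miR-132. Such a comparison is made within each library, so that the scaling cancels. The log2 ratio of the miR-212 precursor exceeded that of the miR-132 precursor by 0.83 (interval 0.60 to 1.06; Fisher's exact test of precursor by library, unadjusted p = 7.03e-13). Of the reads of all 4 arms, miR-212 supplied 43.5% in the control library (exact Clopper-Pearson interval 40.5 to 46.5) and 57.7% after SE (interval 55.2 to 60.2). Of these reads of mature arms, miR-132 thus supplied the larger part in the control library and miR-212 after SE. As for the single arms, the order of reads need not be that of the molecules.

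Between the arms of the same side, the difference was larger for the 5p arms. The log2 ratio of miR-212-5p exceeded that of miR-132-5p by 1.16 (interval 0.84 to 1.47; Fisher's exact test, unadjusted p = 9.14e-14), and its share of the 5p reads went from 48.0% (interval 44.0 to 52.0) to 67.3% (interval 64.0 to 70.4). For the 3p arms, which share the seed, the log2 ratio of miR-212-3p exceeded that of miR-132-3p by 0.53 (interval 0.18 to 0.89; Fisher's exact test, unadjusted p = 0.00288). MiR-212-3p supplied 37.3% of the 3p reads in the control library (interval 32.8 to 41.9) and 46.2% after SE (interval 42.5 to 49.95). These comparisons use the same 4 pairs of counts and are not independent of each other.

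Because the 3p arms share the seed AACAGUC, they were also summed. The sum was 714 counts after SE and 451 in the control library, 98.6 and 51.6 CPM, with a log2 ratio of 0.93 (interval 0.76 to 1.11), or 0.83 above the median. Both 5p arms together reached 119 CPM (859 counts) after SE and 71.5 CPM (625 counts) in the control library, with a log2 ratio of 0.73 (interval 0.58 to 0.88), or 0.63 above the median. All 4 arms added up to 217 CPM after SE and 123 CPM in the control library, a log2 ratio of 0.82 (interval 0.71 to 0.93), or 0.72 above the median. Over the scalings the sum of all 4 arms kept its direction, with log2 ratios from 0.55 to 0.82.

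**Figure D2:**
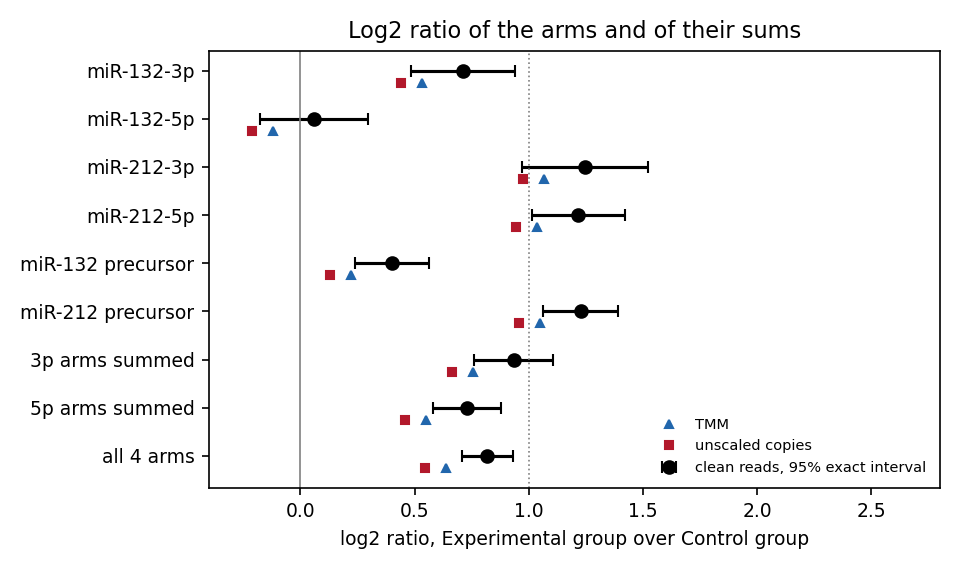
Log2 ratio of the Experimental over the Control group (horizontal axis) for each arm, each precursor and the sums of arms. Black points use the clean reads as depth with 95% exact intervals, blue triangles TMM and red squares unscaled copies, the solid line marks 0 and the dotted line 1. Only the interval of miR-132-5p (-0.17 to 0.30) includes 0.

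The arms of miR-132 moved apart and those of miR-212 did so to no detectable extent. For miR-132 the log2 ratio of the 3p arm exceeded that of the 5p arm by 0.65 (interval 0.32 to 0.98). The reads of the arms in both libraries gave p = 6.67e-05 by Fisher's exact test, and 0.000343 after adjustment over the 55 precursors with at least 30 counts for each arm. The 3p arm made up 46.5% of the miR-132 reads in the control library (interval 42.5 to 50.6) and 57.7% after SE (interval 53.9 to 61.5). The 5p arm was therefore the more frequent in the control counts, with an interval that includes an equal share, and the 3p arm after SE.

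For miR-212 the difference between the arms was 0.03 (interval -0.32 to 0.37), with an adjusted p of 0.977 by Fisher's exact test. The 3p arm made up 35.9% of its reads in the control library (interval 31.5 to 40.4) and 36.3% after SE (interval 33.2 to 39.6). The 5p arm of miR-212 was thus the more frequent in both libraries. An equal change of both arms is not shown, since the interval reaches a log2 difference of 0.37. The difference between the arms of miR-132 and that of miR-212 was not tested against each other.

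A shift between arms was common in these libraries. Of the 55 precursors 34.5% passed an adjusted p of 0.01 in the same test. Among the 54 precursors other than miR-132, 18 (33.3%) had a difference between the arms at least as large in size, and their median size was 0.37. Among the 54 other than miR-212, 50 had a difference at least as large as that of miR-212. The more frequent arm changed between the libraries for miR-132 and for 5 of the 54 others.

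**Figure D3:**
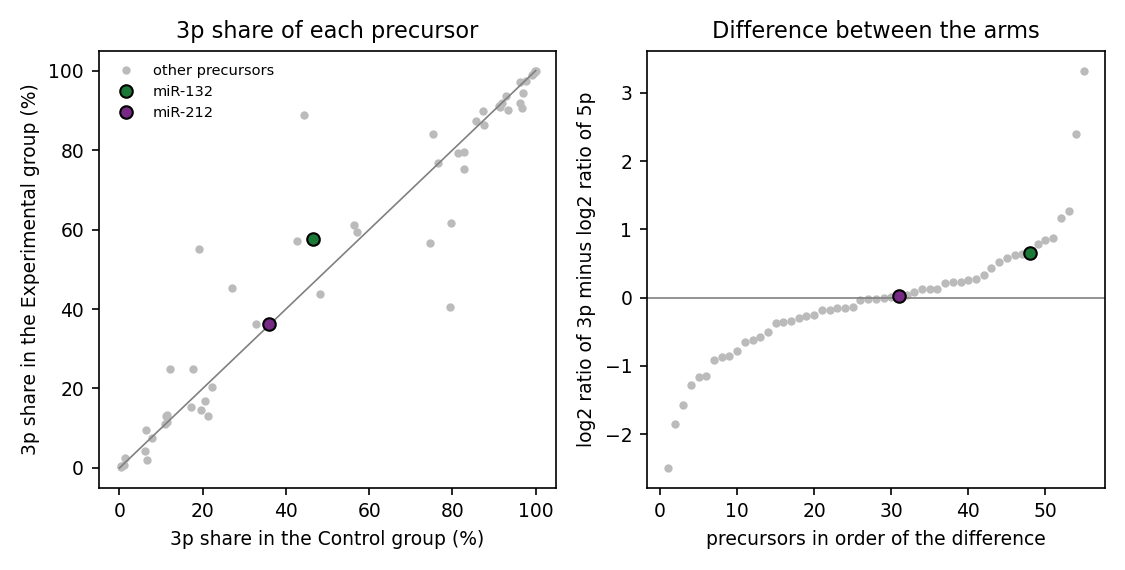
Left, share of the 3p arm in the reads of each precursor, in percent, in the Control group (horizontal axis) and in the Experimental group (vertical axis), with a line of equality. Right, log2 ratio of the 3p arm minus that of the 5p arm for the 55 precursors in order, with a line at 0. MiR-132 (green) lies above the line of equality with shares of 46.5% and 57.7%, and miR-212 (purple) lies on it with 35.9% and 36.3%.

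Other precursors that lie close together in the genome give a scale for the difference between miR-212 and miR-132. Only precursors with both arms in the table, at least 30 counts and mature arms annotated at 1 gene only in GRCr8 were used. Among them, 9 other pairs of neighbours on the same strand had starts of their mature arms within 1000 bases. Their log2 ratios differed by 0.03 to 0.71, with a median of 0.19, against 0.83 for miR-212 and miR-132. The next largest difference was that of miR-434 and miR-136, with log2 ratios of -0.28 and 0.43. This is a description of a few pairs, some of which share a member, and it is no test.

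The members were set beside miRNAs with known roles at synapses or known changes with neuronal activity. Of 21 such miRNAs 18 were analysed here, all with at least 30 counts, and their median log2 ratio was 0.02, against 0.10 for all miRNAs. By Fisher's exact test 7 of the 18 passed an adjusted p of 0.01 as higher and 4 as lower, and 2 reached a log2 ratio of at least 1. These shares lie near those of all miRNAs with at least 30 counts (35.1%, 19.3% and 10.2%). The highest was miR-134-5p, a miRNA of dendrites that limits spine size, at 28.9 CPM after SE and 10.1 CPM in the control library, with a log2 ratio of 1.52 (interval 1.15 to 1.89). The lowest was miR-129-2-3p, at 788 and 1219 CPM, with a log2 ratio of -0.63 (interval -0.67 to -0.58). The most abundant were miR-128-3p, a neuronal miRNA, with a log2 ratio of -0.45, and miR-29a-3p, with -0.23. The log2 ratios of miR-212-3p and miR-212-5p thus lay between those of miR-134-5p and of miR-124-3p (1.09), and that of miR-132-3p lay below that of miR-181a-5p (0.88). MiR-124-3p and miR-181a-5p were named here after their values were seen.

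The cell types in the pools were examined with marker miRNAs, none of which tells the hippocampus from other brain tissue. The neuronal markers analysed here (4 of 6) summed to 37608 CPM after SE and 44561 CPM in the control library, with log2 ratios from -0.45 for miR-128-3p to 1.09 for miR-124-3p, so that they did not move in 1 direction. The 3 oligodendrocyte markers summed to 1563 and 1588 CPM, but moved apart. MiR-219-5p was lower after SE (log2 ratio -0.48, adjusted p = 5.20e-26 by Fisher's exact test), while miR-219-2-3p, the most abundant, had a log2 ratio of 0.07 (adjusted p = 0.00163 by Fisher's exact test). The microglia and leukocyte markers (2 of 5) summed to 39.5 and 40.6 CPM, with log2 ratios of 0.04 for miR-142-5p and -0.25 for miR-146a-5p. The erythrocyte markers (2 of 3) summed to 28.7 CPM after SE and 13.0 CPM in the control library, a difference that rests on miR-451-5p (196 and 100 counts), whose log2 ratio was 1.24 (interval 0.89 to 1.60). For the other, miR-144-3p (12 and 14 counts), it was 0.05 (interval -1.19 to 1.27). The part of cell makeup and of blood in the values of the cluster was not tested. In pooled tissue a change in the number of cells of a type and a change in the RNA per cell cannot be told apart.

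**Figure D4:**
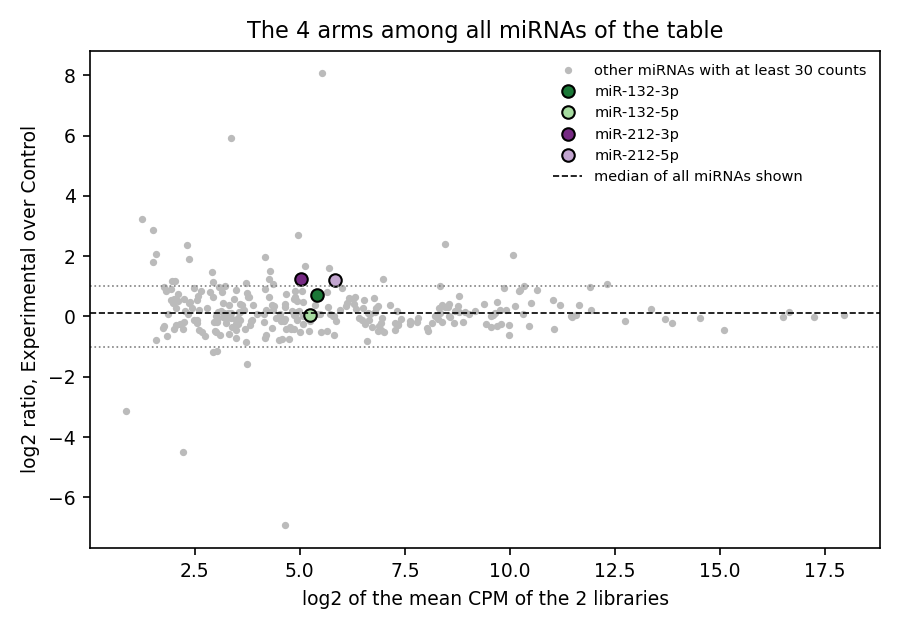
Log2 ratio of the Experimental over the Control group (vertical axis) against the log2 of the mean CPM of both libraries (horizontal axis) for the 285 miRNAs with at least 30 counts in either library. Grey points are other miRNAs, coloured points the 4 arms, the dashed line the median of 0.10 and the dotted lines log2 ratios of 1 and -1. Both miR-212 arms lie above 1, miR-132-3p between the median and 1, and miR-132-5p next to the median.

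The known miRNAs with the most similar levels were found by the distance in log2 CPM over both libraries. With 2 libraries this says only that their levels were alike. MiR-132-3p was nearest to miR-541-5p (363 and 274 counts, log2 ratio 0.68, distance 0.09) and then to miR-503-5p (339 and 313 counts, 0.39, distance 0.23). MiR-132-5p was nearest to miR-195-5p (275 and 309 counts, log2 ratio 0.10, distance 0.08) and to miR-135a-3p (260 and 345 counts, -0.14, distance 0.14).

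The miR-212 arms had no neighbour as close as these. MiR-212-3p was nearest to miR-34b-5p (275 and 186 counts, log2 ratio 0.83, distance 0.30) and to miR-668 (386 and 145 counts, 1.68, distance 0.31). MiR-212-5p was nearest to miR-30a-3p (465 and 319 counts, log2 ratio 0.81, distance 0.33) and to miR-344b-5p (613 and 382 counts, 0.95, distance 0.36).

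The calls of the members rest on counting error alone. If a coefficient of variation of 0.2 between libraries is assumed in edgeR's exact test, the adjusted p was 0.0431 for both arms of miR-212 and 0.413 for miR-132-3p, so that none passed 0.01. With an assumed value of 0.4 the adjusted p was 1 for each of these 3.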

How the data were processed

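Small RNA of 2 pooled hippocampal libraries was analysed, 1 per group as given by the labels. For each miRNA the authors deposited the count of its reads as a whole number without scaling, although the file header speaks of normalized signal. Per the methods of the study, low-quality, short and single-read sequences were discarded. The submitters' processing notes name the build rn 5, and the aligner and miRBase release are not given in the sources used here. The deposited p-values are the authors' own comparison and were not used.

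Counts were divided by the clean reads that the study gives for each library, and the deposited table held 78.4% and 76.7% of these as counts. Counts under 3 were set to 3 before a ratio was taken. Each miRNA was tested by a two-sided Fisher's exact test with Benjamini-Hochberg adjustment over all 390 rows. Differences between members were tested by Fisher's exact test on their counts in both libraries, and their intervals are exact conditional intervals of the odds ratio. Other intervals were exact Clopper-Pearson or Poisson. The named miRNAs were the members, the 2 nearest known miRNAs of each in log2 CPM, and per list the most abundant 2, the highest and the lowest. MiR-124-3p and miR-181a-5p (as synaptic miRNAs), miR-434, miR-136, miR-144-3p and miR-144-5p were named after their values were seen. Alternatives were the sum of deposited counts, unscaled copies, TMM (edgeR 4.0.16), size factors (DESeq2 1.42.0), an exact test in edgeR under an assumed spread between libraries, unadjusted p, a pseudocount of 1, and other minimums and thresholds. The members and lists were chosen with earlier results of these data known. Sequences were taken from RefSeq (GRCr8), which held 297 of the known miRNAs of the table. The tests were checked on simulated counts with Poisson error and no spread between libraries, so the check does not reach variation between animals or pools. For log2 ratios the intervals were checked only on 162 miRNAs given a simulated log2 ratio of 2 in either direction. This is larger than the log2 ratio of any member. In these the 95% intervals held the true value in 95.1% of cases. For arm differences this was 91.7%, from 14 precursors with a simulated difference and 10 without. Software was Python 3.11.15, scipy 1.17.1 and R 4.3.3.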

Additional observations from a re-analysis of the deposited data

How the results depend on the processing

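No paired analysis was possible because only 1 pool was sequenced per group, and no replicate could be left out. The log2 ratio of miR-132-5p (0.06) turned negative with TMM (-0.12), with unscaled copies (-0.21) and with the size factors of DESeq2 (-0.029). The miR-132 precursor (0.40) no longer passed with unscaled copies (0.13) or TMM (0.22). Where edgeR's exact test was given a coefficient of variation of 0.2 or 0.4, none of the log2 ratios passed an adjusted p of 0.01 (miR-132-3p 0.71, miR-212-3p 1.24, miR-212-5p 1.22, miR-132 precursor 0.40, miR-212 precursor 1.23), because that test adds a spread between libraries. Under the other scalings, or with a pseudocount of 1, values lay from 0.44 to 0.71 for miR-132-3p, from 0.97 to 1.24 for miR-212-3p, from 0.95 to 1.22 for miR-212-5p and from 0.96 to 1.23 for the miR-212 precursor. The differences between arms and between members do not depend on the scaling. A pseudocount of 1 entered only the size of these differences and not their test, and an unadjusted p cannot exceed the adjusted one. Neither setting could therefore take away a call. The exact test of edgeR with an assumed spread between libraries was not run on these differences, so their calls rest on counting error alone.

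Among all miRNAs with at least 30 counts 29 were higher and 6 lower by a log2 ratio of at least 1. These counts were 16 and 12 with unscaled copies, 47 and 21 with a minimum of 10 counts, 18 and 2 with a minimum of 100 counts, 53 and 25 without a minimum, and 9 and 3 with a log2 ratio of at least 2. Of the miRNAs passing the adjusted p, 64.5% were higher with the clean reads, 61.2% with the sum of counts, 54.8% with DESeq2's size factors, 44.7% with TMM and 36.5% with unscaled copies. Counts of 168 to 578 per arm leave intervals of the log2 ratio that span about 0.4 to 0.6; depth limits smaller changes.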
